A study of Mus musculus with 18 samples.

Results

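The mitochondrial ribosomal proteins were followed in the left ventricle of mice over the first 72 h of acute myocardial infarction (AMI). The 77 genes were those whose symbol starts with Mrpl or Mrps and a number, with pseudogene symbols left out, among 24419 symbols in the expression table. Of these, 48 carry a large subunit symbol (Mrpl) and 29 a small subunit symbol (Mrps). The rule used names only and no measured value. RNA was sequenced from 18 male C57BL/6 mice, all 8 weeks old, anaesthetised with pentobarbital at 50 mg/kg and with no transgene or drug treatment named in the labels. In 15 of them the proximal left anterior descending coronary artery was ligated and infarcted left ventricle was taken 10 min, 1 h, 6 h, 24 h or 72 h later from 3 mice each. The other 3 are controls in the labels and in the study's methods. Its results speak of sham, the name used here. Each library is the RNA of whole tissue from 1 mouse.

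Mitochondria have their own ribosome, which is built in the matrix from RNA of the mitochondrial genome and proteins encoded in the nucleus, made in the cytosol and imported. It translates only the few membrane subunits of the respiratory chain and ATP synthase that mitochondrial DNA encodes, so its output has to match the much larger set of nuclear-encoded subunits of the same complexes. Cardiomyocytes are packed with mitochondria, and inherited defects in several of these ribosomal proteins cause infantile cardiomyopathy.

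All 77 genes had an FPKM of at least 1 in all 18 mice, so every member passed the filter on low values that kept 13333 genes for testing. FPKM divides the fragments of a gene by its length and by the total of the library, so levels can be compared between genes. In sham ventricle the mean FPKM of the members ran from 11.2 to 427, a 38.0-fold range, with a median of 64.0. The most abundant was Mrpl30, a counterpart of a bacterial large subunit protein, at 436, 440 and 405 in the 3 sham mice. Mrpl12, which forms the flexible stalk that recruits translation factors, followed at 378, 361 and 396. Mrpl51, a protein without a bacterial counterpart, stood at 329, 285 and 310. The lowest were Mrpl15 at 11.9, 10.3 and 11.4, Mrpl17 at 12.3, 11.7 and 13.2, and Mrpl1 at 13.2, 13.2 and 14.4. Nearly all of these proteins sit in the ribosome in a single copy, with Mrpl12 as an exception, while their mRNAs differed widely in level. Sham mice resembled each other closely, with a median coefficient of variation of 4.46% over the members and a maximum of 11.2% for Mrps22. The spread was wider after ligation, with medians of 6.77% (10 min), 4.8% (1 h), 11.9% (6 h), 12.6% (24 h) and 8.47% (72 h). The order of the members by level changed little: Spearman's rho with the sham means, over 77 members that share their libraries, was 0.997 for the 10 min mice and 0.937 for the 72 h mice. Mrpl30 and Mrpl12 held the 2 highest means in every group, while Mrps35 went from place 39 in sham to 63 at 72 h and Mrpl52 from 24 to 7.

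The members lie on 17 chromosomes, so they are a scattered set rather than a gene cluster (GENCODE M21, mm10). Exons of 32 of them overlap exons of another gene, 8 of them on the same strand. The sources used here do not say whether strand was used in estimating expression, so the FPKM of these genes may hold reads of the neighbour. Among the genes given with their own values, Mrps34 (with Nme3), Mrpl51 (with Mir3098), and Mrpl3 and Mrps18c (each with a predicted gene) overlap a neighbour on the same strand. On the opposite strand this touches Mrpl49 (with Syvn1), Mrpl18 (with Tcp1), Mrpl24 (with Rrnad1), Mrpl44 (with Wdfy1), Mrpl46 (with Mrps11), Mrpl47 (with Actl6a and Ndufb5), Mrpl10, Mrpl12, Mrps18b and Mrps30.

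Promoter sequence was examined because genes of this family are known to share binding sites for NRF1, for GABP of the ETS family and for YY1, factors that drive nuclear genes of mitochondria. RefSeq windows on GRCm38.p6, from 250 bases before to 50 bases after a start site, were at hand for 68 of the 77 members (74 windows). The ETS core CCGGAAG, read on both strands like the others, was in 33.8% of member windows, against 8.86% of all windows and 16.4% of windows of genes that passed the filter. The NRF1 core GCGCANGCG was in 21.6%, against 6.25% and 12.4%. The YY1 core AAGATGGC was in 16.2%, against 2.75% and 4.15%. The TATA box TATAAA was in 6.76% of member windows, against 13.6% and 7.49%. At least 1 of the NRF1, ETS and YY1 cores was in 43 of the 68 genes (63.2%), against 33.6% of genes with a window that passed the filter. A match is a description of letters and not of binding. The 100 bases just before the start site are printed below for 5 members whose levels are followed in the text, with a core match in capitals.
Mrpl30, the most abundant member (chr1:37890377-37890476, plus strand, NRF1 core on the other strand): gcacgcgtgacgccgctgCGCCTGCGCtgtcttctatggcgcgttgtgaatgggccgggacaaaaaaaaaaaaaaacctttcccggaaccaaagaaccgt
Mrpl34, below every sham value from 6 h on (chr8:71464826-71464925, plus strand, ETS core): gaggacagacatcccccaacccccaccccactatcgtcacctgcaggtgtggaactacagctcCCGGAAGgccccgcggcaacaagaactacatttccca
Mrpl52, the largest rise (chr14:54426809-54426908, plus strand, ETS core on the other strand): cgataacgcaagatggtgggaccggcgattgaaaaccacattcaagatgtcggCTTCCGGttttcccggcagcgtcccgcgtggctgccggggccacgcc
Mrpl55, among the largest falls (chr11:59202386-59202485, plus strand, no match in this stretch): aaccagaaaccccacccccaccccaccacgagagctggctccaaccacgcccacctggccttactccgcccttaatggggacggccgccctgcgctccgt
Mrps18b, high at 24 h alone (chr17:35916441-35916540, minus strand, no match in this stretch): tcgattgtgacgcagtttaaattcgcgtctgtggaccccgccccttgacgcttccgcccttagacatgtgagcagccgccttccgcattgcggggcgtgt

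The summed level of the 77 genes gives the time course in 1 value for each mouse. The sum was 6457, 6311 and 6322 FPKM in sham mice. The 10 min mice had 6554, 6149 and 5977, and the 1 h mice 5942, 5877 and 6075. The 6 h mice had 4984, 5765 and 6092, the 24 h mice 5592, 5979 and 4747, and the 72 h mice 4571, 3964 and 4025. From 1 h on, every AMI mouse lay below every sham mouse, and every 72 h mouse lay below all mice of the earlier groups. As a share of the sham mean, the mean sum was 97.9% in the 10 min group, 93.7% in the 1 h group, 88.2% in the 6 h group, 85.5% in the 24 h group and 65.8% in the 72 h group. An exact permutation test of 3 against 3 mice cannot give a p below 0.1, so tests were made gene by gene across the whole table with limma, on log2(FPKM + 1), and "called" means an adjusted p under 0.05. Fold changes below are differences on that log2 scale ± SE. The 5 comparisons with sham share the same 3 sham mice, so they are not independent of each other.

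**Figure D1:**
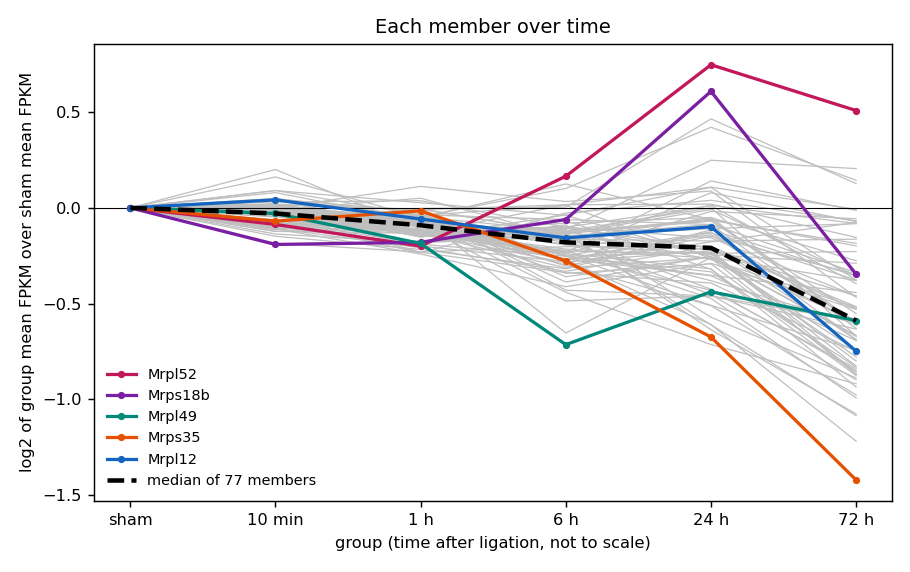
Mean FPKM of each mitochondrial ribosomal protein gene in each group over its sham mean, on a log2 scale (y axis), by group (x axis, time not to scale); grey lines are single genes, the dashed line is the median of the 77 and 5 genes are coloured. Most lines stay within a narrow band to 1 h and drift down to 72 h, with Mrpl52 above the sham level from 6 h and Mrps18b above it at 24 h alone.

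In the first hour no member was called. At 10 min the median fold change of the members was −0.03, against 0.02 over all genes tested. Of all genes, 0.346% were called by limma, and 2 members had an unadjusted p under 0.05, against 14.7% of all genes. At 1 h the median was −0.09, against −0.02, and no member was called, against 0.722% of all genes. However, 25 members had an unadjusted p under 0.05 at 1 h, against 12.6% of all genes, and in all 25 the AMI mean was the lower one. The members share their libraries, so these p-values are not independent of each other. The smallest adjusted p was 0.185, for Mrpl46, with a mean of 44.5 ± 1.03 FPKM (SD, n = 3) in sham and 37.9 ± 1.84 at 1 h. Among the complex I subunits, 16 of 37 had an unadjusted p under 0.05 at 1 h, and among the cytosolic ribosomal proteins 7 of 78, again all with the lower mean in AMI mice.

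At 6 h, 10 of the 77 members were called lower and none higher, while 16.8% of all genes were called lower and 11.6% higher. The members' share was thus below the background for falls, and their median fold change was −0.18, against −0.08 over all genes. The largest called fall was that of Mrpl49, a protein of the mitochondrial ribosome without a bacterial counterpart. Its FPKM was 42.4, 40.3 and 36.4 in sham and 19.4, 22.9 and 30.3 at 6 h, a change of −0.71 ± 0.16 (adjusted p = 0.016), and no AMI value reached the lowest sham value. Mrpl47, the counterpart of a protein at the bacterial exit tunnel, went from 13.8, 13.7 and 14.7 to 7.73, 8.93 and 10.0 (−0.61 ± 0.11, adjusted p = 0.00751). Mrpl34, a small and strongly basic protein, went from 116, 105 and 120 to 69.3, 75.4 and 99.5 (−0.50 ± 0.14, adjusted p = 0.033, and 0.0575 with no filter on low values). In each of the 3 genes the groups stood apart, and 6 h mouse 3 came closest to sham. Mrpl18 followed at −0.46 ± 0.11 (adjusted p = 0.0247) and Mrpl39 at −0.43 ± 0.095 (adjusted p = 0.0171). The other called members were Mrps2, Mrpl44, Mrps17, Mrps9 and Mrpl3, with changes from −0.40 to −0.26. By 72 h Mrpl49 stood at 27.1, 27.2 and 24.9 and Mrpl34 at 83.1, 61.1 and 76.3, values that overlap those of 6 h.

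The mice of the 6 h group differed among themselves, and the count at 6 h changed with the mice included. In 6 h mouse 1, 70 of the 77 members had their lowest value of the group, and in mouse 3, 52 had their highest. The summed level of 10 leukocyte markers was 447 FPKM in mouse 1, against 185 and 306 in mice 2 and 3, and that of 10 cardiomyocyte markers was 60047, against 72025 and 65852. The 7 endothelial markers summed to 2063 to 2257 in the 6 h mice, above every sham sum of 1440 to 1501, with 2 of them called higher and 2 lower. More of that sum came from Fabp4 than from any other marker, with 827, 842 and 811 FPKM in sham and 1380, 1570 and 1380 in the 6 h mice. The sum thus follows Fabp4 and does not describe the markers as a set. The part of these differences in the members' levels was not tested. Leaving out mouse 3 gave 29 called members, leaving out mouse 1 gave 5 and leaving out mouse 2 gave 7, and without sham mouse 1, 2 or 3 the count was 1, 1 and 3.

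At 24 h the members moved apart: 19 were called lower and 4 higher, against 11.4% of all genes called lower and 26.2% higher. The median of the members was −0.22, while the median of all genes was 0.13. The largest called falls were those of Mrpl18 (152 ± 3.45 to 92.7 ± 21.6 FPKM, −0.74 ± 0.17, adjusted p = 0.0176), Mrps35 (64.0 ± 0.952 to 40.1 ± 8.29, −0.68 ± 0.15, adjusted p = 0.0158) and Mrpl42 (272 ± 10.2 to 175 ± 33.2, −0.65 ± 0.15, adjusted p = 0.0166), each with SD and n = 3. Mrpl55 (−0.62 ± 0.15) and Mrps36 (−0.61 ± 0.12) came next. With 1 mouse left out, Mrpl18, Mrps35, Mrpl42 and Mrpl55 each lost the call in 3 fits and Mrps36 in 1. Mrps36 keeps a ribosomal name but is known as a small subunit of the 2-oxoglutarate dehydrogenase complex of the Krebs cycle.

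The 4 rises at 24 h were not all followed by the same course. Mrpl52, a large subunit protein without a bacterial counterpart, had 88.6, 83.8 and 85.0 FPKM in sham, 84.6, 98.4 and 105 in the 6 h mice, 128, 140 and 164 in the 24 h mice and 115, 121 and 130 in the 72 h mice. All 24 h and 72 h values exceed all sham values, and the change at 24 h was 0.73 ± 0.11 (adjusted p = 0.00538). Mrps18b, one of 3 relatives of the bacterial S18 protein in this ribosome, had 16.1, 13.0 and 14.3 in sham, 13.5, 15 and 13.2 in the 6 h mice, 19.1, 24.1 and 23.2 in the 24 h mice and 11.8, 11.3 and 11.2 in the 72 h mice. It rose at 24 h by 0.58 ± 0.12 (adjusted p = 0.0134) and then lay below every sham value at 72 h. Mrps10, the counterpart of a bacterial protein in the head of the small subunit, went from 44.1, 46.1 and 41.0 to 55.5, 65.1 and 60.4 at 24 h (0.45 ± 0.092, adjusted p = 0.0123) and had 46.8, 49.0 and 47.4 at 72 h. Mrpl17 went from 12.3, 11.7 and 13.2 to 16, 16.4 and 17.3 (0.39 ± 0.086, adjusted p = 0.0155) and had 13.7, 13.3 and 14.2 at 72 h. After quantile normalization the 24 h rise of Mrpl17 was 0.20 and was not called (adjusted p = 0.0839). At 72 h neither Mrps10 (0.12 ± 0.066, adjusted p = 0.115) nor Mrpl17 (0.14 ± 0.071, adjusted p = 0.0978) was called.

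**Figure D2:**
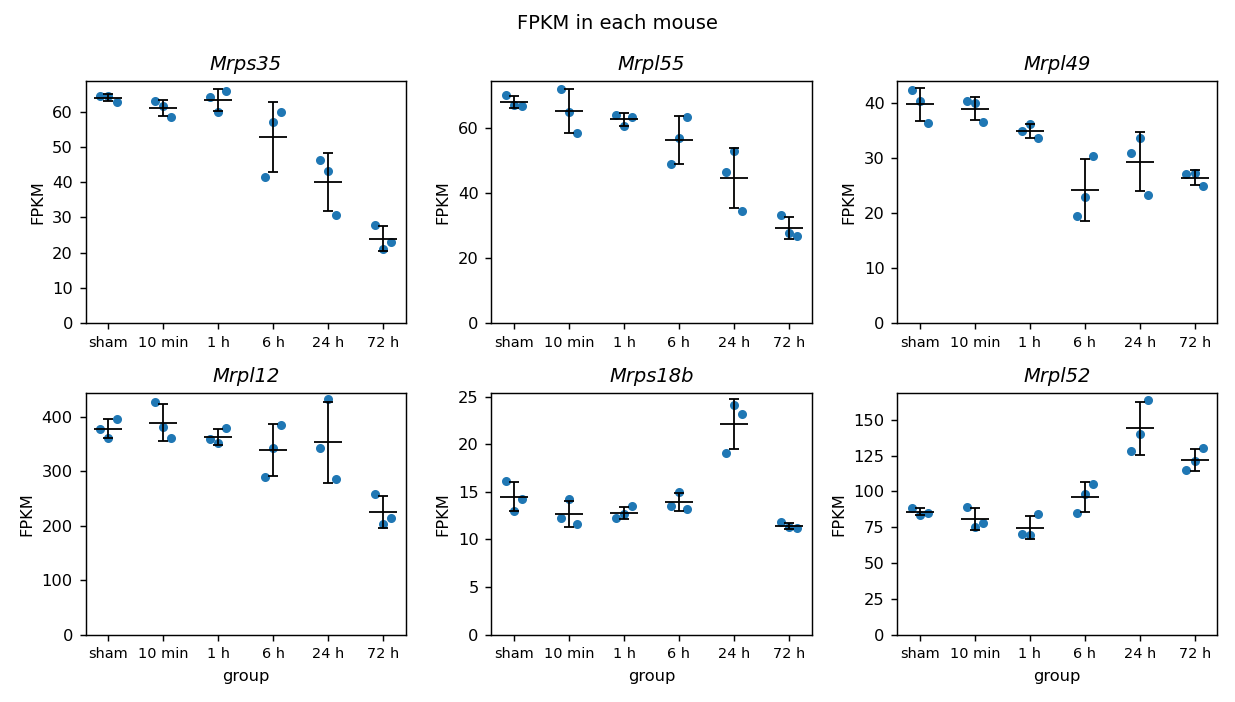
FPKM (y axis, from 0) of 6 genes in each mouse by group (x axis); points are mice, horizontal lines are means and whiskers the SD of 3 mice. Mrps35 and Mrpl55 reach their lowest values at 72 h, Mrpl49 is low from 6 h, Mrps18b is high at 24 h alone, and Mrpl52 exceeds all sham mice at 24 h and 72 h.

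The direct comparison of 24 h with 6 h called 2 members, Mrps18b (0.63 ± 0.13, adjusted p = 0.0267) and Mrpl52 (0.58 ± 0.14, adjusted p = 0.0373), both higher, against 12.5% of all genes called higher and 1.94% lower. The members' median was 0.03, with 0.20 over all genes, and it became −0.22 with all mice rescaled by median-of-ratios. With that rescaling neither gene was called, and with 1 mouse left out both were called without 24 h mouse 1 and neither without any other mouse. In 24 h mouse 3, 67 of the 77 members had their lowest value of the group. The leukocyte markers summed to 1247 FPKM in that mouse, against 697 and 739 in mice 1 and 2, and the cardiomyocyte markers to 44217, against 57010 and 55259. Their part in the result was not tested. Without sham mouse 1, 2 or 3 the number of members called at 24 h was 2, 3 and 3. Without sham mouse 1, 0 members were called lower, and the 2 called were higher.

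At 72 h most members were lower than in sham. Of the 77, 62 were called lower, 2 higher and 13 were not called. Of all genes, 24.2% were called lower and 53.1% higher. The median change of the members was −0.57, against 0.29 over all genes, and their changes ran from −1.39 to 0.50. The FPKM of a gene is relative to all other genes of the library, and with median-of-ratios rescaling, which moved the all-gene median to 0.03, 74 members were called lower and 1 higher, against 36% of all genes lower and 39.1% higher. Members above the median level and those at or below it had medians of −0.60 and −0.44.

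The largest fall at 72 h was that of Mrps35, a small subunit protein of the mitochondrial ribosome that bacteria do not have. It had 64.5, 64.6 and 62.9 FPKM in sham and 27.8, 21 and 22.9 at 72 h, a change of −1.39 ± 0.097 (adjusted p = 2.67e-06). Mrpl55, a large subunit protein without a bacterial counterpart, went from 70.4, 67.3 and 66.9 to 33.3, 27.7 and 26.9 (−1.20 ± 0.086, adjusted p = 3.1e-06). Mrps36, of the 2-oxoglutarate dehydrogenase complex, went from 124, 119 and 122 to 70.8, 51.6 and 50.1 (−1.09 ± 0.12, adjusted p = 5.03e-05). In these 3 genes all 72 h values lay below all sham values. Mrpl42 had 266, 284 and 266 in sham and 154, 123 and 109 at 72 h (−1.08 ± 0.12, adjusted p = 4.24e-05). Mrpl28, a counterpart of a bacterial large subunit protein, had 169, 158 and 155 in sham and 91.8, 68.6 and 82.4 at 72 h (−0.99 ± 0.10, adjusted p = 3.26e-05).

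**Figure D3:**
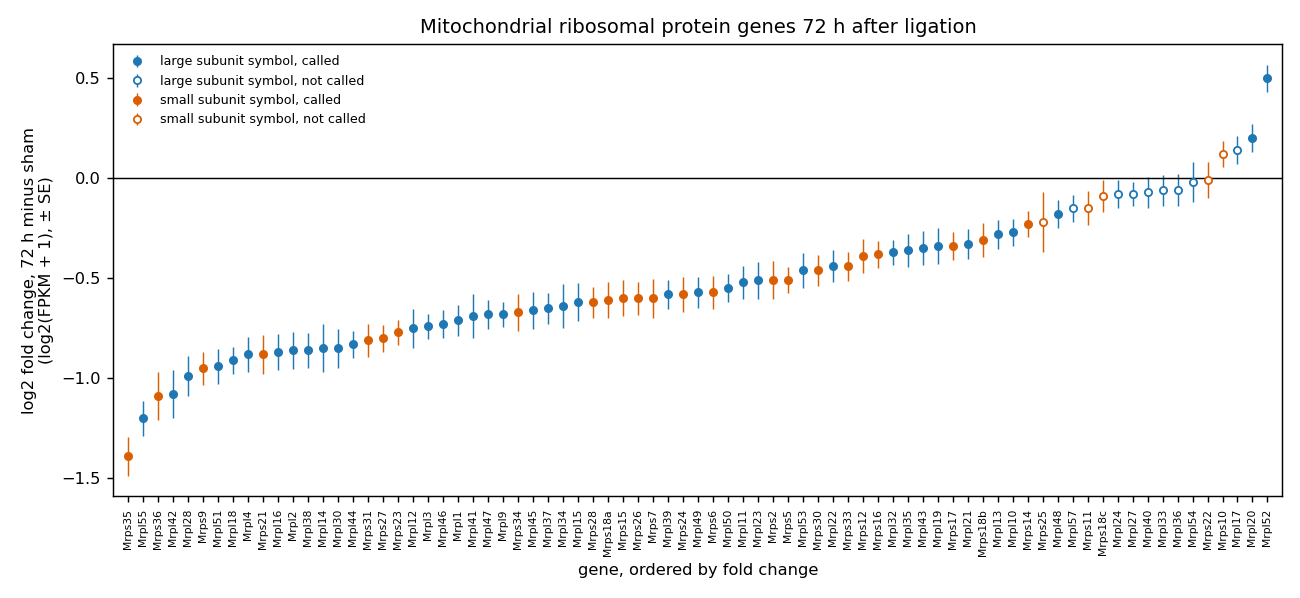
Change of each of the 77 genes at 72 h against sham, as the difference in mean log2(FPKM + 1) (y axis) with its SE from limma, ordered by size (x axis); filled points were called at an adjusted p under 0.05 and open points were not. Large and small subunit symbols are mixed along the order, from Mrps35 at −1.39 to Mrpl52 at 0.50, and Mrpl20, the other called rise, falls to −0.11 with median-of-ratios rescaling.

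The 2 rises at 72 h were those of Mrpl52 (0.50 ± 0.068, adjusted p = 0.000168) and Mrpl20 (0.20 ± 0.069, adjusted p = 0.0264). Mrpl20, whose bacterial counterpart is needed to assemble the large subunit, had 65.3, 63.4 and 65.8 FPKM in sham and 74.3, 80.4 and 69.7 at 72 h. Its direction depended on scaling, with −0.11 (adjusted p = 0.155) after median-of-ratios rescaling and 0.05 (adjusted p = 0.506) after quantile normalization, whereas Mrpl52 was called higher under all 15 alternatives. The 13 members not called were Mrps25, Mrpl57, Mrps11, Mrps18c, Mrpl24, Mrpl27, Mrpl40, Mrpl33, Mrpl36, Mrpl54, Mrps22, Mrps10 and Mrpl17, with changes from −0.22 to 0.14.

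Genes called lower were found among large and small subunit symbols and among low and high symbol numbers. Of the Mrpl genes, 38 of 48 were called lower (median −0.58), and of the Mrps genes 24 of 29 (median −0.57). Symbols do not always give the place of the protein: Mrps30 and Mrps18a are known to lie in the large subunit, and Mrps36 outside the ribosome. With these 2 moved and Mrps36 left out, a grouping added after the data were seen, 40 of 50 large subunit genes (median −0.58) and 21 of 26 small subunit genes (median −0.54) were called lower. The ratio of the summed FPKM of the Mrpl genes to that of the Mrps genes was 2.35, 2.32 and 2.36 in sham and 2.22, 2.26 and 2.18 at 72 h. By place of the protein it was 2.96, 2.95 and 2.97 in sham and 2.75, 2.77 and 2.7 at 72 h. The ranges do not overlap in either grouping, though the differences are small. A sum weighs abundant genes most: the 10 members highest in sham held 38% of the members' sum in sham and 33% at 72 h. Of the 44 members whose number places them with bacterial ribosomal proteins, 35 were called lower (median −0.51), and of the 33 with higher numbers 27 (median −0.62). Members with an NRF1 core in the promoter window had a median change of −0.63 (16 genes) and those without one −0.51 (52 genes). For the ETS core the medians were −0.39 (25 genes) and −0.58 (43 genes), and for YY1 −0.58 (12 genes) and −0.53 (56 genes). These differences between genes with and without a core are descriptions and were not tested.

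By role in the ribosome, a few chosen members are given here. Most members were called lower at 72 h, against 24.2% of all genes, so lower calls are not particular to a role. In the stalk, the 3 chosen genes were called lower: Mrpl12 by −0.75 ± 0.098 (378 ± 17.4 to 225 ± 28.8 FPKM), Mrpl11 by −0.52 ± 0.082 and Mrpl10, the base of the stalk, by −0.27. Mrpl12 fell late, with 342, 432 and 285 at 24 h, values that span the sham range, and 258, 203 and 214 at 72 h. At the exit of the nascent chain, Mrpl45, which holds the ribosome to the inner membrane, was called lower (−0.66 ± 0.093), as were Mrpl22 (−0.44 ± 0.079) and Mrpl23 (−0.51 ± 0.093). Mrpl24 of the same region was not called, with 64.6, 60.1 and 58.1 in sham and 56.1, 55.1 and 61.4 at 72 h (−0.08, adjusted p = 0.32). After median-of-ratios rescaling Mrpl24 was called lower too (−0.39, adjusted p = 0.00155). Mrps12, at the decoding site of the small subunit, changed by −0.39. Mrps30 and Mrps18a, which lie in the large subunit despite their symbols, changed by −0.46 ± 0.077 and −0.61 ± 0.09.

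The list held 4 genes whose inherited defects cause cardiomyopathy in people. Mrpl44 had 62.2, 55.1 and 57.6 FPKM in sham and 33.3, 31.6 and 31.8 at 72 h (−0.83 ± 0.067, adjusted p = 6.2e-06). Mrpl3 had 157, 157 and 161 in sham and 97.7, 96.7 and 88.8 at 72 h (−0.74 ± 0.064, adjusted p = 9.79e-06). Both were already called lower at 6 h. Mrps14 was called lower by −0.23, but not with the mice rescaled to the same FPKM sum (−0.15, adjusted p = 0.0549) or with all 18 mice in 1 fit (adjusted p = 0.117). Mrps22 was not called, with 19.2, 21.3 and 24.0 in sham and 22.2, 21.9 and 19.9 at 72 h (−0.01, adjusted p = 0.948), and was at −0.31 (adjusted p = 0.0105) after median-of-ratios rescaling. Of the 3 S18 relatives, Mrps18a and Mrps18b were called lower at 72 h, the latter by −0.31 ± 0.084, and Mrps18c was not (−0.09, adjusted p = 0.323), though it was called at −0.41 after that rescaling.

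From 24 h to 72 h, 30 members were called lower and none higher, against 13.5% of all genes called lower and 29.7% higher, with a median of −0.33 against 0.13. Mrps18b changed most (−0.89 ± 0.11, adjusted p = 0.000928), followed by Mrps35 (−0.71 ± 0.18, adjusted p = 0.0157). Mrps34, whose defects cause Leigh syndrome in people, had 185, 211 and 160 FPKM at 24 h, around its sham values of 191, 182 and 185, and 133, 104 and 115 at 72 h (−0.66 ± 0.14, adjusted p = 0.00859). Mrpl2, next to the peptidyl transferase centre, had 119, 137 and 108 at 24 h and 88.6, 71.7 and 71.5 at 72 h (−0.65 ± 0.13, adjusted p = 0.00715). Mrpl12 changed by −0.64 ± 0.17 (adjusted p = 0.0218). The number called lower was 51 without 24 h mouse 3, 13 without 24 h mouse 2, 18 without 24 h mouse 1, 14 without 72 h mouse 2 and 12 without 72 h mouse 3.

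Other genes of mitochondrial translation were counted from lists written by function. Of 6 ribosomal subunits under other names, 6 were called lower at 72 h: Ptcd3 (−1.03 ± 0.066), a pentatricopeptide protein of the small subunit, Dap3 (−0.71 ± 0.071), its GTP-binding subunit, Gadd45gip1 (−0.65 ± 0.09), Ict1 (−0.51 ± 0.068), which frees stalled ribosomes, Chchd1 (−0.37 ± 0.11) and Aurkaip1 (−0.32 ± 0.068). Of 13 translation factors and their partners, 12 were called lower (median −0.44). These included Lrpprc (−1.36 ± 0.066), which stabilises mitochondrial mRNAs, and Tufm (−1.25 ± 0.091), the elongation factor that brings tRNAs to the ribosome. Tufm stood at 42.7, 39.8 and 42.8 FPKM in sham, 29.9, 29.0 and 21.6 in the 24 h mice and 19.5, 16 and 15.7 at 72 h. Of 19 genes of ribosome assembly and rRNA modification, 12 were called lower and 1 higher (median −0.42), with Mtg2 (−0.90 ± 0.10), a GTPase of large subunit assembly, and Nsun4 (−0.81 ± 0.083), an rRNA methyltransferase, among the falls. With median-of-ratios rescaling 17 of the 19 were called lower and none higher (median −0.69), and with quantile normalization all 19 were called lower (median −0.89). The share of all genes called lower at 72 h moved too. It was 24.2% as deposited, 36% with median-of-ratios rescaling and 43.5% with quantile normalization. In this list 7 of 19 were called lower at 6 h (median −0.31), against 16.8% of all genes.

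Of 7 genes of mitochondrial transcription, 5 were called lower at 72 h, with Mterf2 (−0.97 ± 0.091) and Tefm (−0.67 ± 0.08), the transcription elongation factor, falling most, and 2 higher. Oxa1l (−0.89 ± 0.085), the insertase that receives the new chains, and Letm1 (−0.84 ± 0.061) were called lower and Cox18 (0.46 ± 0.10) higher. Cox18 was not called after median-of-ratios rescaling (0.17, adjusted p = 0.155) or quantile normalization (0.05, adjusted p = 0.688). Among 9 nuclear regulators of mitochondrial genes, Ppargc1a (−1.40 ± 0.093), the coactivator of mitochondrial biogenesis, and Esrra (−0.95 ± 0.09), a nuclear receptor it works with, were called lower, and 5 were called higher, with Myc (1.07 ± 0.10) and Pprc1 (1.02 ± 0.095) in front. Myc was very low in sham, at 0.141, 0.174 and 0.163 FPKM, and its highest value at 72 h was 1.74. The 1 added to each FPKM exceeds these sham values, so it compresses the change of Myc. Under the alternatives the change of Myc ran from 0.49 to 2.55. Pprc1 went from 6.1, 5.93 and 7.17 to 12.6, 14.2 and 15.1, so the similar changes of Myc and Pprc1 do not stand for similar ratios. Of all genes, 53.1% were called higher and 24.2% lower at 72 h, so 5 rises among 9 lie near the background. The balance of this list depended on scaling: its median was 0.29 as deposited, −0.01 with median-of-ratios rescaling (4 higher, 4 lower) and −0.08 with quantile normalization (2 higher, 4 lower). The median of all genes under the same settings was 0.29, 0.03 and −0.12. Ppargc1a had 20.7, 21.5 and 22.1 FPKM in sham, 27.9, 28.8 and 20.5 in the 1 h mice, 17.5, 14.4 and 17.6 in the 6 h mice and 8.6, 6.57 and 7.47 in the 72 h mice. After quantile normalization Mtfmt (−0.19), Ddx28 (−0.20), Mterf1a (−0.12) and Mterf1b (−0.23), all called higher without it, had negative values, and Ddx28 had −0.05 after median-of-ratios rescaling, with which Mtfmt (0.09, adjusted p = 0.342) and Mterf1b (0.16, adjusted p = 0.204) were not called.

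Set beside the respiratory chain and the cytosolic ribosome, the members took a middle course at 72 h. Of 37 complex I subunits, 36 were called lower and 1 higher (median −1.29), and of 38 nuclear subunits of complexes III and IV and ATP synthase, also 36 lower and 1 higher (median −1.29). Of 78 cytosolic ribosomal proteins, 74 were called higher and none lower (median 0.89), and these directions held for the medians under all scalings. The summed FPKM at 72 h was 65.8% of sham for the mitochondrial ribosome, 40.6% for complex I and 178% for the cytosolic ribosome. The ratio of the mitochondrial ribosome sum to the complex I sum was 0.236, 0.227 and 0.239 in sham, 0.214, 0.209 and 0.24 in the 6 h mice, 0.256, 0.291 and 0.29 in the 24 h mice and 0.346, 0.406 and 0.397 in the 72 h mice. Every 24 h mouse and every 72 h mouse lay above every sham mouse. As a share of the cytosolic ribosome sum, the members went from 16.3%, 15.2% and 16.5% in sham to 11.4%, 13.5% and 13.1% in the 6 h mice and 6.54%, 6.02% and 5.3% in the 72 h mice, with no overlap with sham at either time. At 6 h complex I had 2 called falls of 37, the cytosolic ribosomal proteins 7 called rises of 78, and the members 10 called falls of 77. Each of these lies below the share of all genes at 6 h, 16.8% lower and 11.6% higher, so they give no order in time. At 24 h the counts were 31 falls of 37, 67 rises of 78, and 19 falls and 4 rises of 77, against 11.4% of all genes lower and 26.2% higher.

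**Figure D4:**
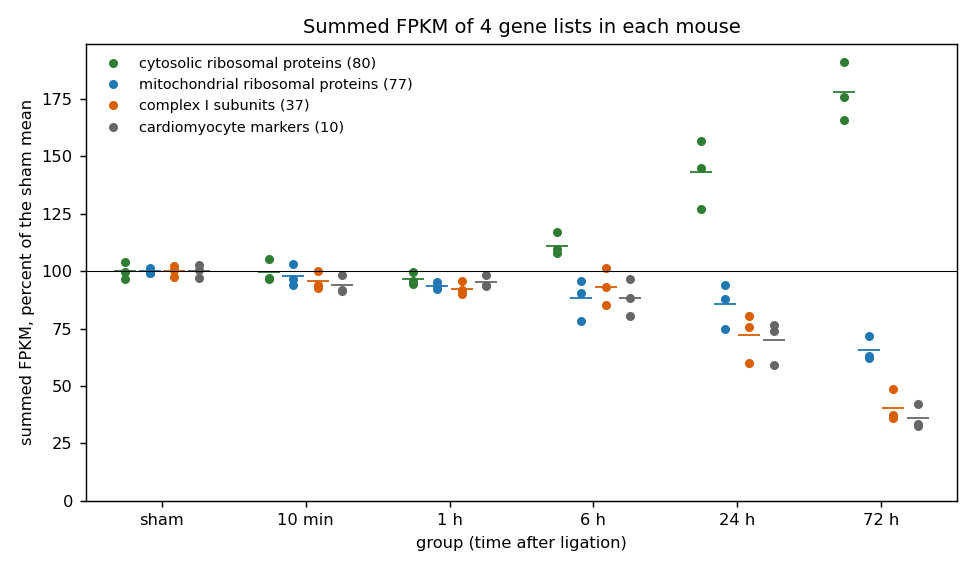
Summed FPKM of 4 gene lists in each mouse as a percent of the list's sham mean (y axis, from 0), by group (x axis); points are mice and lines are means of 3. At 72 h the mitochondrial ribosome averages 65.8%, between the cytosolic ribosome at 178% and complex I at 40.6%, and the cardiomyocyte markers average 35.9%.

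Markers of cell types moved over the same time. All 10 cardiomyocyte markers were called lower at 72 h (median −1.74), with a summed level of 72395 to 76453 FPKM in sham and 24135 to 31470 at 72 h, or 35.9% of sham. All 10 leukocyte markers were called higher, with sums of 188 to 238 in sham, 697 to 1247 at 24 h and 4164 to 5104 at 72 h. All 7 fibroblast markers were called higher, with sums of 256 to 288 and 3811 to 4930, and all 8 proliferation markers, with sums of 9.51 to 10.3 and 119 to 165. Of 7 endothelial markers, 4 were called lower and 1 higher, and of 5 erythroid markers 2 lower. None of these markers was at 0 in all 3 mice of a group. In 72 h mouse 1, which had the highest cardiomyocyte sum, 64 of the 77 members had their highest value of the group. The part of these changes in the members' levels was not tested, and in RNA of whole tissue fewer cells of a type and less RNA per cell cannot be told apart.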

How the data were processed

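The authors trimmed the reads with cutadapt 1.18, aligned them to mm10 with HISAT2 2.1.0 and estimated expression with StringTie 1.3.4d, and deposited FPKM per gene symbol for each of the 18 mice. The gene annotation is not given in the sources used here. The table holds no counts, so depth is unknown and the precision of a value rests on the spread between 3 mice. FPKM summed to between 542418 and 600467 in each mouse.

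FPKM were taken as deposited and tested as log2(FPKM + 1), with a pseudocount of 1, in limma 3.58.1 (R 4.3.3; lmFit, then eBayes with a variance trend). Of 24419 symbols, 13333 reached an FPKM of 1 in some mouse and entered the fit. Each comparison used its own 6 mice, and p-values (two-sided) were adjusted by Benjamini-Hochberg over all genes tested in it. The steps were tested on simulated data. The Cufflinks test of the study needs reads and was not used.

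Members and lists were chosen with earlier results of these data known. Named members are the 3 highest and lowest in sham, the 5 largest called falls and rises of each comparison, those called against the majority and genes with a structural or disease role. Other lists give their 2 largest called falls and rises at 72 h, and all genes of ribosomal subunits under other names. Mrm2 and Mrm3, which the table lists under older symbols, were not counted, and mRNAs of the mitochondrial genome were not analysed here.

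Nothing in the labels ties mice of different groups that share a replicate number. Correlations of their deviations from the group means ran from −0.327 to 0.415, so the numbers were not taken as pairs. Positions are from GENCODE M21 and promoter windows from RefSeq. The alternatives changed the pseudocount to 0.1, dropped the filter or set it on the mean FPKM, rescaled the mice in 3 ways, and used 1 fit of all 18 mice, the replicate number as a term, no variance trend, or 1 mouse fewer. Setting subunits by the place of the protein was added after the data were seen. Computing used Python 3.11.15, numpy 2.4.6 and pandas 2.3.3, with plots from matplotlib 3.10.9.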

Additional observations from a re-analysis of the deposited data

Results flagged for a closer look

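The direct comparisons between later times were flagged because they test a difference between 2 AMI groups. From 6 h to 24 h, 2 of the 77 members were called, Mrps18b and Mrpl52, both higher, and from 24 h to 72 h, 30 were called, all lower, by limma at an adjusted p under 0.05. Of all genes, 12.5% were called higher and 1.94% lower from 6 h to 24 h, and 29.7% and 13.5% from 24 h to 72 h. Both calls from 6 h to 24 h were lost with median-of-ratios scaling, quantile normalization or the replicate number as a term. Mrps18b was the single member called in opposite directions against sham, higher at 24 h and lower at 72 h, with a difference of −0.89 on the log2 scale between these times (adjusted p = 0.000928). The 24 h and 72 h values of this gene did not overlap, and the call of this difference held under all 15 alternatives.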

How the results depend on the processing

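At 10 min and 1 h no member was called under any of the 15 alternatives, and at 72 h the count stayed within 1.5 times the reported 64 in all of them, with 62 to 67 when 1 mouse was left out. The counts at other times moved more. At 6 h, reported as 10, it was 5 with no filter, 5 with median-of-ratios scaling, 16 with all 18 mice in 1 fit, 6 with the replicate block and 1 to 29 with 1 mouse left out. The share of all genes called lower at 6 h, reported as 16.8%, moved too. It was 10.7% with no filter, 11.9% with median-of-ratios scaling, 20.8% with all 18 mice and 11.8% with the replicate block. At 24 h, reported as 23, it was 37 with median-of-ratios scaling, 35 with all 18 mice and 2 to 27 with 1 mouse left out. Of all genes, 11.4% were called lower and 26.2% higher at 24 h as reported. These shares were 18.2% and 18.5% with median-of-ratios scaling, and 15.4% and 34.3% with all 18 mice. From 6 h to 24 h, reported as 2, it was 1 with no filter, 0 with median-of-ratios scaling, quantile normalization or the replicate block, 16 with all 18 mice (7 higher, 9 lower) and 0 to 2 with 1 mouse left out. Of all genes, 3.02% were called higher and 2.76% lower with median-of-ratios scaling, and 36.4% and 7.52% with all 18 mice. With the replicate block, 1 of 13328 genes was called higher and 0 lower. The count of 0 members there is thus not particular to them. From 24 h to 72 h, reported as 30, it was 49 with median-of-ratios scaling, 47 with all 18 mice and 12 to 51 with 1 mouse left out. The share of all genes called lower between these times was 13.5% as reported, 20.2% with median-of-ratios scaling and 18.3% with all 18 mice. Shares of all genes with 1 mouse left out are not given here. The cause was not tested. Of 67 single-gene results under 1004 alternatives in all, 915 kept their side of the threshold, 77 lost it, 6 gained it and 6 changed sign at 72 h. Changes of sign were counted only for results called as reported. The counted sign changes were Mrpl20 (−0.11) and Ddx28 (−0.05) with median-of-ratios scaling, and Mtfmt (−0.19), Ddx28 (−0.20), Mterf1a (−0.12) and Mterf1b (−0.23) with quantile normalization. The share of lower calls among all genes called also moved, by median-of-ratios scaling from 59.1% to 45.2% at 6 h, from 30.2% to 49.7% at 24 h, from 31.3% to 47.9% at 72 h, from 13.4% to 47.7% between 6 h and 24 h and from 31.2% to 46% between 24 h and 72 h, and by quantile normalization to 56.4% at 24 h, 57.5% at 72 h, 42.8% between 6 h and 24 h and 55.3% between 24 h and 72 h. Depth is unknown, since the table holds no counts.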
